A study of Fragaria vesca with 18 samples.

Results

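Spliced intergenic long non-coding RNAs of woodland strawberry fruit are the subject here: 677 of the 19247 intergenic lncRNA rows (3.52%) in a count table of 61763 rows. A row was taken as spliced when its assembled locus held 2 or more separate exon blocks after overlapping exons of that locus were merged. The other 18570 intergenic rows had 1 block. The choice used exon positions only and no count.

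Long non-coding RNAs (lncRNAs) are transcripts without an annotated protein product, and an intergenic lncRNA comes from a locus between annotated genes. Splicing joins exons by removing the introns between them, and most spliced RNAs made by RNA polymerase II also receive a poly(A) tail. RNA without a tail includes unspliced precursors, some non-coding RNAs and RNA fragments.

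The fruit came from Fragaria vesca (Hawaii4), and each of the 18 libraries was made from RNA of at least 5 plants combined. The achenes, which are the true fruits of a strawberry and sit on its fleshy receptacle, gave the 3 stages their names. Green stands for immature fruit whose achenes were green, and yellow and brown for mature fruit whose achenes had those colours. At each stage 3 replicate libraries were made after removal of ribosomal RNA (rRNA-depleted) and 3 after removal of polyadenylated RNA (poly(A)-depleted). An rRNA-depleted library therefore holds RNA with and without a tail, and a poly(A)-depleted library is enriched in RNA without one. No treatment or genotype differed between groups. Library totals were 47.2 to 76.9 M counts for rRNA-depleted and 9.49 to 20.4 M for poly(A)-depleted libraries. The rows carry locus numbers and no gene names, so the fruit label could not be checked against marker genes and no known function is attached to any lncRNA below.

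Most of the spliced lncRNAs had a simple structure. Of the 677, 572 had 2 blocks, 83 had 3, 17 had 4 and 5 had more, up to 9 blocks in LINC.XLOC_003564. The merged exons had a median length of 1675 bases (range 251 to 21199), against 1335 bases for single-block rows. The 816 gaps between blocks had a median of 176 bases, and their 25th and 75th percentiles were 91 and 841 bases. In all, 146 gaps were 50 to under 100 bases long, 183 were 100 to under 200 and 203 were 200 to under 1000. A further 56 gaps, in 55 members, reached 10000 bases or more, up to 204105 bases in LINC.XLOC_011231. At the other end, 95 gaps were 1 to 49 bases long, and 2 were gaps of 0 between blocks that touch without overlapping. Joining blocks across gaps under 50 bases would leave 598 members, because 79 members had no longer gap. Every member had an assembled transcript with 2 or more exons, and 677 of the 816 gaps (83.0%) had exactly the ends of an assembled intron. A single transcript was assembled at 493 of the loci and up to 7 at the others. Just outside the definition stood 93 single-block loci that also had a transcript of 2 or more exons, but whose introns were covered by exons of another transcript.

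**Figure D1:**
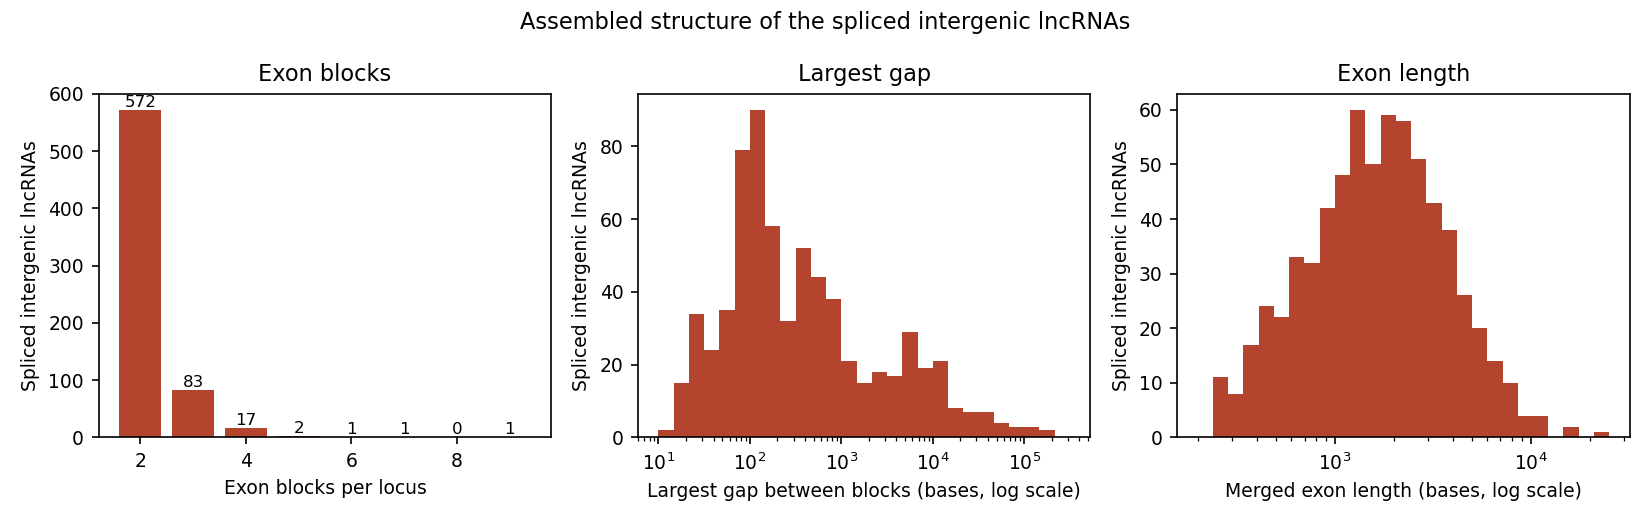
Histograms of the number of exon blocks, the largest gap between blocks (bases, log scale) and the merged exon length (bases, log scale) for the 677 spliced intergenic lncRNAs. The bar for 2 blocks holds 572 loci, and the largest gaps are most frequent near 100 bases, with a tail beyond 10000 bases.

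The loci lay on all 7 chromosomes, with 59 on chromosome 1 and up to 132 on chromosome 4, and 7 lay on contigs. Spliced loci made up 2.78 to 3.95% of the intergenic rows of each chromosome and 10.4% of the few on contigs. They were split evenly by strand, with 346 on the plus and 331 on the minus strand. Another assembled locus on the opposite strand overlapped 305 members (45.1%), against 45.5% of single-block rows. A same-strand locus began or ended within 1000 bases of 243 members (36% of those with such a neighbour), against 30.5% of single-block rows. The loci of 24 members were also listed under a second lncRNA class, so their intergenic row may hold part of the counts, and 8 of these 24 had fewer than 10 counts in all.

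Few of the spliced lncRNAs were silent, and most were low. No library had a count for 39 of the 677 (5.76%), against 3433 of 18570 single-block rows (18.5%). At least 10 counts were found in a mean of 59.0 ± 2.63% of members in green rRNA-depleted libraries and 53.4 ± 8.25% in brown poly(A)-depleted ones (SD, n = 3 libraries). The corresponding means for single-block rows were 48.0 and 48.7%. Levels are given as CPM, counts rescaled so that libraries of unlike size can be compared. For levels across library kinds, the factors come from all 18 libraries, and values per kilobase (kb) of merged exon allow loci to be compared. The median member stood at 0.293 ± 0.0178, 0.351 ± 0.088 and 0.359 ± 0.033 CPM per kb in green, yellow and brown rRNA-depleted libraries. In poly(A)-depleted libraries it stood at 0.513 ± 0.0484, 0.571 ± 0.0723 and 0.530 ± 0.266 CPM per kb. Within each kind the stage means differed by less than the SD of the most variable stage. The median single-block row was lower in rRNA-depleted libraries, at 0.162, 0.201 and 0.215 CPM per kb, and stood at 0.406, 0.614 and 0.519 in poly(A)-depleted libraries.

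Median levels were higher in longer loci and not in loci with more blocks. Members were split at the quartiles of merged exon length, 930, 1675 and 2865 bases. Their median over the 18 libraries was 0.257 and 0.258 CPM per kb in the 2 shorter classes, 0.950 in the third and 1.60 in the longest. Single-block rows in the same length classes had medians of 0.360, 0.263, 0.806 and 1.65 CPM per kb, so the gradient was not particular to spliced loci. By block number the medians were 0.555 for 2 blocks, 0.449 for 3 and 0.209 for the 22 members with 4 or more. The assembly itself needs reads along the locus, so length and level are not independent measures. Members that overlapped an opposite-strand locus had a median of 0.160 CPM per kb and those overlapping none 0.943.

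Together the spliced lncRNAs took a small share of each library. In rRNA-depleted libraries the share was 0.113, 0.120 and 0.109% of all counts at green, 0.102, 0.118 and 0.171% at yellow, and 0.153, 0.171 and 0.291% at brown. Poly(A)-depleted libraries gave 0.350, 0.370 and 0.288% at green, 0.580, 0.727 and 0.758% at yellow, and 0.310, 0.594 and 0.808% at brown. At each stage every poly(A)-depleted library exceeded every rRNA-depleted library. The stages overlapped in part: poly(A)-depleted brown library 1 lay within the green range, and brown library 3 was the highest of all 18. Single-block rows moved with them, at 1.38 to 4.73% of rRNA-depleted and 5.13 to 15.9% of poly(A)-depleted counts, highest again in brown library 3 of either kind. Within the intergenic class, spliced rows held 5.82, 6.67 and 6.74% of the counts in rRNA-depleted and 5.10, 4.92 and 5.31% in poly(A)-depleted libraries at the 3 stages.

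**Figure D2:**
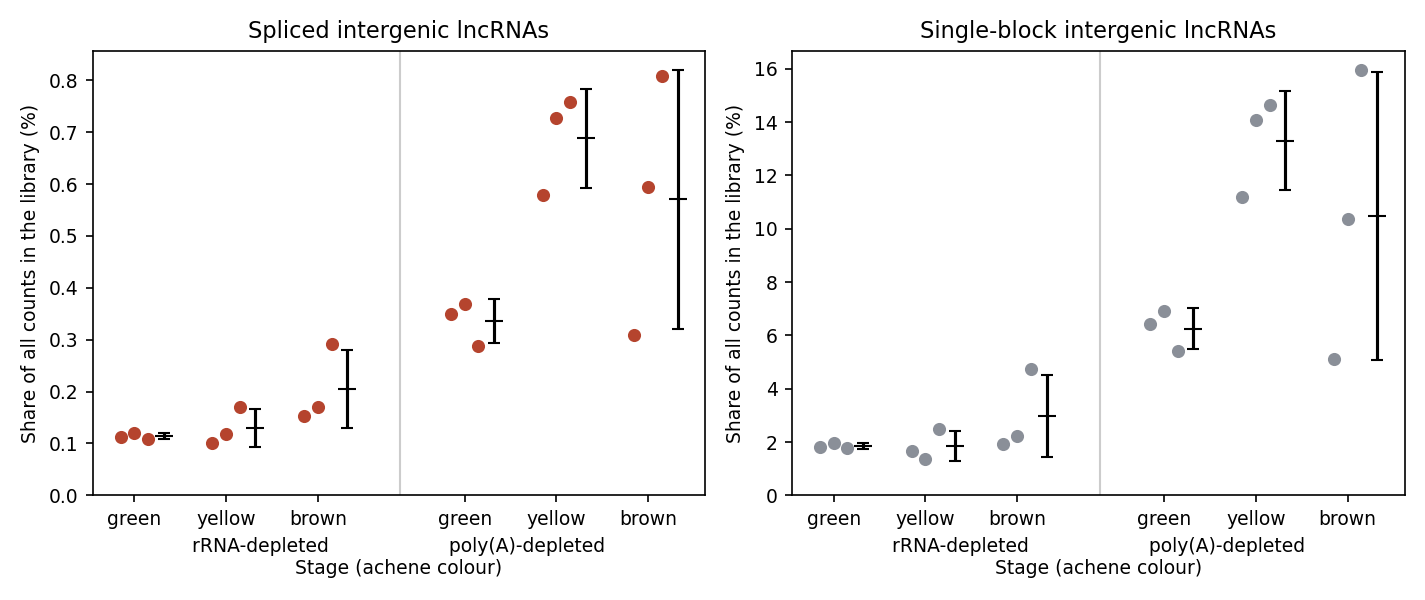
Share of all counts of a library (%) in spliced (left) and single-block (right) intergenic lncRNAs, by stage and library kind. Each point is a library and bars give the mean ± SD of 3 libraries. Spliced rows span 0.102 to 0.808%, and brown poly(A)-depleted libraries spread from 0.310 to 0.808%.

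The first comparison asked how the members divide between the library kinds, averaged over the 3 stages. Of 504 members with enough counts to test, 303 were higher in poly(A)-depleted libraries (60.1%) and 44 were lower (8.73%) at an adjusted p under 0.05 (edgeR quasi-likelihood test, Benjamini-Hochberg over all 52101 rows tested). Over all rows 43% were called higher and 34.1% lower, 77.2% in all. Annotated genes gave 34.4% higher and 43.1% lower. Single-block intergenic rows gave 75.4% higher and 2.84% lower, so the called members were divided between the directions less one-sidedly than single-block rows, and neither list was tested as a list. The median log2 difference of the members was 1.03, against 0.40 over all rows, 1.32 for single-block rows and -0.21 for genes. Scaling moved these medians. With TMM factors (trimmed means of the ratios between libraries) from genes only, the all-row median was 0.84 and with library size only 1.88, and the members lay 0.62 and 0.60 above it, against 0.64 in the main scaling. With library size only, 397 members were called higher and 8 lower, and the split over all rows in that scaling is not given. Among called members at 1 CPM or more in the higher kind, some did not overlap between the kinds at any stage. The 3 poly(A)-depleted libraries lay above the 3 rRNA-depleted ones at every stage for 86 of these and below them for 5. The same count over all rows is not given, so these numbers are not set against a background. For the comparisons of stages further below, fewer cells of a type and less RNA per cell cannot be told apart in these bulk samples.

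The called shares differed with the structure of the locus, and the structural classes were not tested against each other. With 2 blocks, 62.6% of 417 tested members rose in poly(A)-depleted libraries and 7.67% fell, at a median log2 difference of 1.07. With 3 blocks, 47.8% of 69 were higher and 14.5% lower, with a median of 0.59. With 4 or more, 50% of 18 were higher and 11.1% lower, with a median of 0.79. Gap size gave a wider range, in classes chosen after the data were seen. Where the largest gap was under 50 bases, 83.3% of 60 were higher and 1.67% lower, with a median of 1.30. For gaps of 100 to under 200 bases, 43.6% of 101 were higher and 15.8% lower, with a median of 0.55. Where a gap reached 10000 bases, 83.7% of 43 were higher and none lower, with a median of 1.15. Both ends of the gap range were thus near the single-block values and the middle was lower. The class of 100 to under 200 bases had the smallest share called higher in the 4 scalings run, at 52.5% with TMM from genes and 67.3% with library size only. A scaling shifts all classes in a similar way, so the kept order is no separate support. Level differed between the classes too. The median member stood at 1.43 CPM for gaps under 50 bases, 0.492 for 100 to under 200, 0.257 for 200 to under 1000 and 2.62 for 10000 or more. The part of level was not tested. The single-block loci with a transcript of 2 or more exons gave 70.1% of 67 higher and 7.46% lower, with a median of 0.97.

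**Figure D3:**
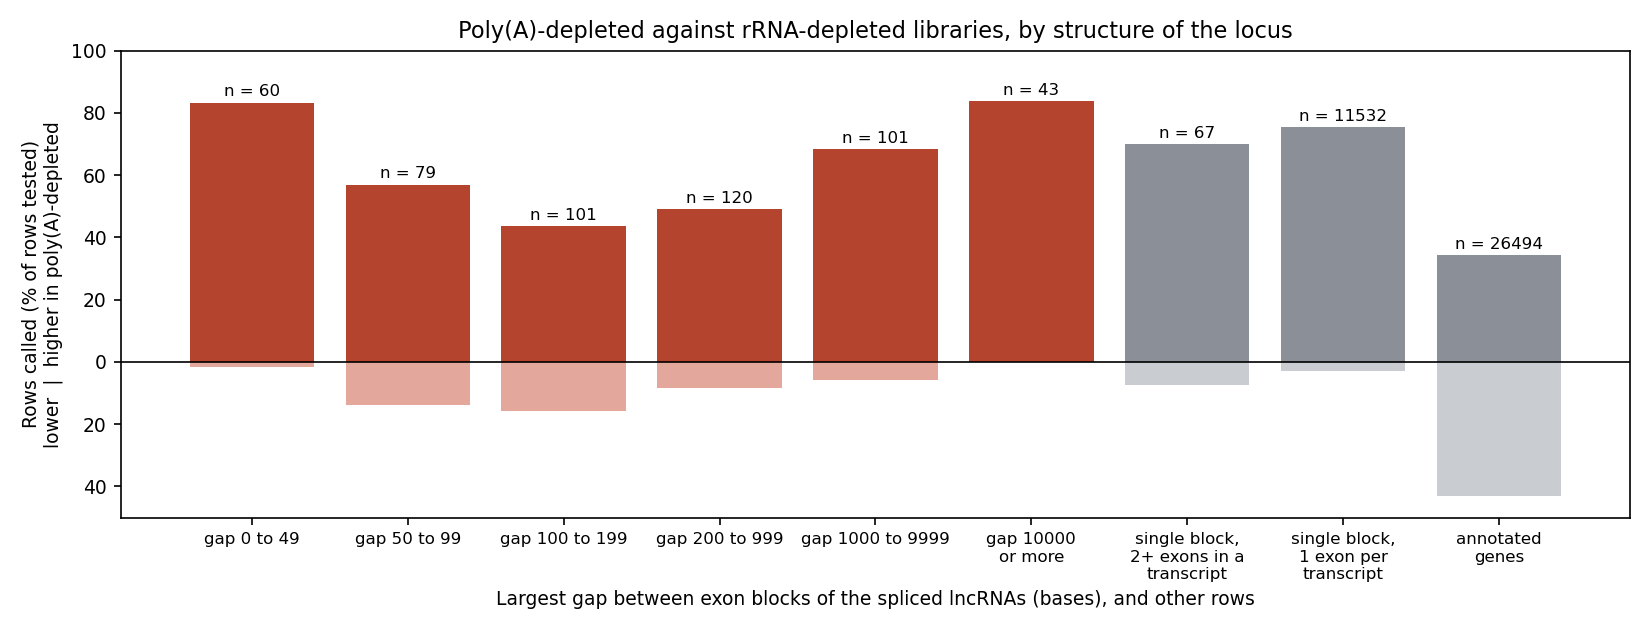
Percent of tested rows called higher (upward) or lower (downward) in poly(A)-depleted than in rRNA-depleted libraries, for spliced lncRNAs by their largest gap (red) and for single-block rows and annotated genes (grey), with the number tested. The share called higher falls from 83.3% for gaps under 50 bases to 43.6% for 100 to under 200 bases and is 83.7% for gaps of 10000 bases or more.

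The called shares also differed by exon length. From the shortest to the longest class, 33%, 45.9%, 68.1% and 79.7% of tested members were higher in poly(A)-depleted libraries, and 4.55%, 10.7%, 7.8% and 10.5% were lower. Single-block rows of the same lengths gave 47.7%, 81.4%, 84% and 91.1% higher and 3.57%, 3.4%, 2.19% and 1.45% lower. Longer members also carry more counts, and the part of depth in these percentages was not tested.

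Among called members at 1 CPM or more whose kinds did not overlap at any stage, the largest rise in poly(A)-depleted libraries was LINC.XLOC_020089 (chromosome 5, 19035899 to 19036641, plus strand, 2 blocks 39 bases apart). With blocks joined across gaps under 50 bases it would not be a member. Its levels were 0.226, 0.885 and 0.913 CPM at green, 2.12, 1.79 and 1.95 at yellow and 0.571, 1.04 and 2.05 at brown. In rRNA-depleted libraries they were 0, 0.174 and 0.115, then 0.444, 1.12 and 0.293, then 0.0628, 0 and 0.0922 CPM. No stage overlapped between the kinds, and the log2 difference was 2.94 ± 0.586 (SE; edgeR adjusted p = 0.000183). LINC.XLOC_020323 (chromosome 5, 21577227 to 21580113, plus strand, 2 blocks 433 bases apart) followed, at 2.76 ± 0.525 (edgeR adjusted p = 0.000115), with stage means of 1.5, 3.21 and 2.70 CPM against 0.276, 0.257 and 0.547. Its brown poly(A)-depleted libraries were uneven, at 1.0, 0.923 and 6.18 CPM.

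The largest fall by the same rule was LINC.XLOC_020019 (chromosome 5, 18201326 to 18202621, plus strand, 2 blocks 98 bases apart). It stood at 18.3, 18.1 and 13.9 CPM in green, 9.69, 57.8 and 21.6 in yellow and 48.5, 42.3 and 2.93 in brown rRNA-depleted libraries. Poly(A)-depleted libraries held 1.59, 1.90 and 3.93, then 0.783, 0.872 and 0.347, then 2.71, 1.44 and 0.0932 CPM. Brown library 3 was the lowest brown library of each kind, and the kinds were still separate at every stage, with a log2 difference of -4.24 ± 0.531 (edgeR adjusted p = 1.79e-06). LINC.XLOC_007260 (chromosome 2, 21704187 to 21709455, minus strand, 4 blocks with gaps of 97 to 876 bases) had stage means of 70.8, 69.9 and 55.0 CPM in rRNA-depleted and 22.8, 4.83 and 9.38 in poly(A)-depleted libraries. Its log2 difference was -2.68 ± 0.269 (edgeR adjusted p = 1.94e-07), and its level in poly(A)-depleted libraries also fell from green to yellow by 2.19 ± 0.365 on the log2 scale (edgeR adjusted p = 0.00972).

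Between stages, CPM values below use the factors of that library kind's own 9 libraries. In rRNA-depleted libraries 432 members were tested, 14 were higher at yellow than at green (3.24%) and 4 lower (0.926%), with the edgeR test adjusted over 49283 rows. Over all rows 2.56% were called higher and 4.49% lower, 7.06% in all, and over single-block rows 0.649% and 0.409%. The median log2 difference of the members was 0.18, and 0.00 over all rows. The called rises ran from 1.32 to 8.05 and the called falls from -3.44 to -7.19 on the log2 scale. The count fell to 6 without green library 2 or 3, to 10 without yellow library 2 and to 11 without yellow library 3. The matching counts over all rows are not given.

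LINC.XLOC_023354 (chromosome 6, 2272778 to 2274393, plus strand, 2 blocks 139 bases apart) rose most among called members at 1 CPM or more whose libraries did not overlap between the stages. Green rRNA-depleted libraries held 1.68, 1.28 and 0.793 CPM, yellow ones 4.70, 279 and 78.6, and brown ones 196, 176 and 81.6. All yellow and brown libraries lay above all green ones, but yellow library 1 was far below the other yellow libraries. The log2 difference of yellow from green was 6.59 ± 1.08 (edgeR adjusted p = 0.0014), and 5.15 without yellow library 2 (edgeR adjusted p = 0.000672). LINC.XLOC_013846 (chromosome 4, 5153637 to 5159132, plus strand, 2 blocks 98 bases apart) had 4.58, 3.08 and 2.35 CPM at green, 8.70, 405 and 82.9 at yellow and 266, 427 and 97.4 at brown. The same yellow library was low, and the rise was 5.63 ± 1.06 (edgeR adjusted p = 0.00383), or 3.87 without yellow library 2 (edgeR adjusted p = 0.00289).

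Under the same limits 3 members fell from green to yellow, and the 2 with the largest falls were low. LINC.XLOC_023251 (chromosome 6, 852391 to 855196, plus strand) went from 1.61, 2.70 and 3.35 CPM to 0.210, 0.0223 and 0.107, a log2 difference of -4.42 ± 1.04 (edgeR adjusted p = 0.0161). The call was lost when green library 2, green library 3 or yellow library 3 was left out (adjusted p = 0.055, 0.0779 and 0.0788), and without yellow library 1 its difference was -5.17. Scaling by library size only lost the call too (edgeR adjusted p = 0.063). LINC.XLOC_010859 (chromosome 3, 3760962 to 3763206, minus strand) had 1.11, 1.53 and 1.30 CPM at green and 0.0561, 0 and 0.161 at yellow, a difference of -4.07 ± 1.14 (edgeR adjusted p = 0.044). This call was weak: it held in 6 of 17 settings, and was lost without each green library (adjusted p = 0.102, 0.148 and 0.122), each yellow library (0.103, 0.0817 and 0.0574, with differences of -3.90, -3.48 and -5.21) or brown library 1 (0.0583).

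Between brown and green, 39 members were higher (9.03%) and 15 lower (3.47%) in rRNA-depleted libraries, by the same edgeR test. Over all rows 4.35% were called higher and 10.1% lower, 14.5% in all, and over single-block rows 3.80% and 0.909%. The members' median log2 difference was 0.78, close to the 0.73 of single-block rows and above the 0.16 of all rows. With library size only, the split was 16 higher and 10 lower. The count fell to 21 without green library 1, to 21 without green library 2 and to 17 without green library 3. For these alternatives the counts over all rows are not given. The single-block loci with a transcript of 2 or more exons gave 15.2% higher and 3.03% lower of 66 tested. In classes of mean CPM over the 18 libraries, spliced rows had the larger called share in each class shown. Single-block rows leaned further to poly(A)-depleted libraries, so levels in the rRNA-depleted libraries tested need not be alike within a class. The part of level in these shares was not tested. Among rows with a mean of 1 to 2 CPM, 8.33% of 60 members were higher and 8.33% lower, against 0.634% and 0.634% of 1736 single-block rows. Above 20 CPM, 35.7% of 28 members were higher and 3.57% lower, against 19.2% and 2.99% of 167 single-block rows. The class mean includes the libraries compared, so a row can enter a high class through its own rise. LINC.XLOC_023354, in the top class, had means of 1.86 CPM at green and 271 at brown in rRNA-depleted libraries, with factors from the 18 libraries. The share called higher in that class is thus partly built in.

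**Figure D4:**
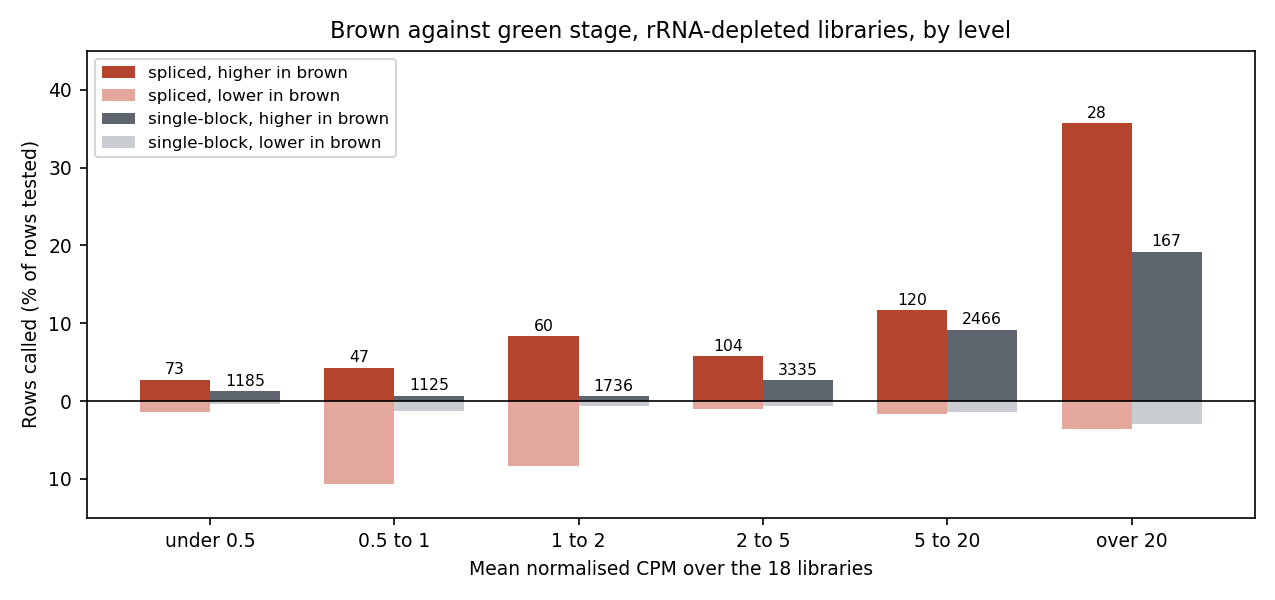
Percent of tested rows called higher (upward) or lower (downward) at brown than at green in rRNA-depleted libraries, by mean normalised CPM over the 18 libraries, for spliced (red) and single-block (grey) intergenic lncRNAs, with the number tested above each bar. In the class of 1 to 2 CPM the spliced bars stand at 8.33% in each direction and the single-block bars at 0.634%. The class mean includes the libraries compared.

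Called rises from green to brown ran up to 7.90 and falls down to -6.67 on the log2 scale. Among members at 1 CPM or more without overlap, the largest fitted rise was that of LINC.XLOC_013930 (chromosome 4, 6295310 to 6295868, plus strand, 2 blocks 85 bases apart). It had 4, 0 and 0 counts at green and 339, 139 and 26 at brown. The fitted log2 difference of 7.07 ± 1.65 (edgeR adjusted p = 0.00937) depends on the prior count, as green was almost empty, and it was 10.5 without green library 1, 6.43 without green library 2 and 6.05 without brown library 1. LINC.XLOC_023354 rose by 6.91 ± 1.09 (edgeR adjusted p = 0.000653), with the values given above, and this call held in each of the 17 settings.

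LINC.XLOC_003965 (chromosome 2, 5817820 to 5818899, plus strand, 2 blocks 91 bases apart) fell most under the same limits. Green rRNA-depleted libraries held 4.81, 5.65 and 7.63 CPM, yellow ones 2.40, 0.0223 and 0.174, and brown ones 0.152, 0.168 and 0.015. Every brown library was below every green one, at a log2 difference of -5.75 ± 1.18 (edgeR adjusted p = 0.00415). LINC.XLOC_016139 (chromosome 4, 1597912 to 1598889, minus strand) went from 78, 40 and 119 counts at green to 5, 0 and 0 at brown, a fitted difference of -5.33 ± 1.45 (edgeR adjusted p = 0.0228). That call was lost without green library 1, green library 3, brown library 2 or brown library 3 (adjusted p = 0.0601, 0.11, 0.0726 and 0.0673, with a difference of -4.72 without brown library 2), and without brown library 1 the difference was -9.25. With library size only the call was lost as well (edgeR adjusted p = 0.0512). A fall was also called in the abundant LINC.XLOC_032869 (chromosome 7, 21665175 to 21666781, minus strand, 2 blocks 85 bases apart), from 67.4, 78.2 and 82.3 CPM at green through 47.4, 9.14 and 22.9 at yellow to 7.95, 5.97 and 6.77 at brown, with a log2 difference of brown from green of -3.46 ± 0.51 (edgeR adjusted p = 0.000389).

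No member was called between brown and yellow in rRNA-depleted libraries with edgeR, where 0% of all rows were called. At an unadjusted p under 0.05 there were 56 of 432 members, and DESeq2 called 1. Without yellow library 2, edgeR called 2 members. Counts over all rows under these alternatives are not given, so the member counts are not set against a background.

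In poly(A)-depleted libraries 393 members were tested. From green to yellow 24 were higher (6.11%) and 7 lower (1.78%) with the edgeR test adjusted over 48201 rows. Over all rows 2.95% were called higher and 7.85% lower, 10.8% in all, and over single-block rows 7.77% and 0.442%. The members' median log2 difference was 0.59, against 0.19 over all rows and 0.66 for single-block rows. Called rises were small, from 0.64 to 1.69, and called falls ran from -1.75 to -4.08. The count depended strongly on the scaling and the libraries. TMM factors from genes gave 149 higher and 7 lower. The count was 2 without any one green library, 10 without yellow library 1, and 0 without yellow library 2 or 3. It was 179 without brown library 1, 16 without brown library 2 and 138 without brown library 3. These counts are of members alone, and the matching counts over all rows are not given, so they are not set against a background. The brown libraries are not compared here but belong to the same fit, and why they move the count was not tested.

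The 2 largest rises there were modest. LINC.XLOC_012546 (chromosome 3, 26359220 to 26361193, minus strand, 2 blocks 110 bases apart) went from 1.04, 1.08 and 1.07 CPM at green to 4.77, 2.86 and 2.72 at yellow, a log2 difference of 1.69 ± 0.46 (edgeR adjusted p = 0.0467). It missed the threshold without any one green library (adjusted p = 0.119, 0.109 and 0.148) or yellow library (0.079, 0.134 and 0.111). Median-of-ratios scaling, library size only and no low-count filter lost the call too (edgeR adjusted p = 0.0504, 0.0593 and 0.0524). LINC.XLOC_003221 (chromosome 1, 18612704 to 18616664, minus strand, 2 blocks 125 bases apart) went from 5.18, 6.39 and 4.06 to 14.2, 14.6 and 13.5 CPM, a difference of 1.43 ± 0.302 (edgeR adjusted p = 0.0234). The call was lost without green library 1, 2 or 3 (adjusted p = 0.0822, 0.0531 and 0.107) or yellow library 2 or 3 (0.103 and 0.0778). Library size only lost it as well (edgeR adjusted p = 0.0512).

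LINC.XLOC_003965 fell in this kind as well, from 6.22, 4.67 and 5.82 CPM at green to 0.468, 0.349 and 0.155 at yellow, a log2 difference of -4.08 ± 1.08 (edgeR adjusted p = 0.0435). The call was lost without any one green library (adjusted p = 0.111, 0.0962 and 0.14) or yellow library (0.0771, 0.162 and 0.152), and with library size only (edgeR adjusted p = 0.074). LINC.XLOC_009496 (chromosome 3, 23054435 to 23058340, plus strand, 3 blocks) fell from 16.8, 13.6 and 19.8 to 3.84, 1.53 and 1.16 CPM, by 2.96 ± 0.826 on the log2 scale (edgeR adjusted p = 0.0491). It too was lost without any one green library (adjusted p = 0.114, 0.0974 and 0.153), any one yellow library (0.0571, 0.179 and 0.16) or brown library 2 (0.0562). Fitting with no low-count filter also lost the call (edgeR adjusted p = 0.0503). In rRNA-depleted libraries this lncRNA had stage means of 21.1, 14.6 and 12.0 CPM, a yellow to green difference of -0.53 ± 0.507 that did not pass (edgeR adjusted p = 0.792).

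From green to brown in poly(A)-depleted libraries, 10 members were higher (2.54%) and 2 lower (0.509%) with edgeR, against 1.28% and 4.38% over all rows, 5.66% in all. The median log2 difference was 0.50. TMM factors from genes gave 36 higher and 2 lower. The count was 2, 1 and 0 without green library 1, 2 and 3, and 3 without yellow library 2 or 3. It was 132 without brown library 1, 1 without brown library 2 and 70 without brown library 3. Here again the matching counts over all rows are not given, so these describe the members alone. LINC.XLOC_023354 led again, from 6.81, 5.74 and 4.29 CPM at green through 9.55, 30.3 and 17.8 at yellow to 147, 68.7 and 17.3 at brown, with a difference of brown from green of 3.78 ± 0.736 (edgeR adjusted p = 0.0172). It passed in 13 of 17 settings and was lost without any one green library (adjusted p = 0.0734, 0.0835 and 0.111) or brown library 2 (0.0502), and without brown library 1 the difference was 3.08. LINC.XLOC_012546 reached 7.98, 3.18 and 8.63 CPM at brown, a difference of 2.63 ± 0.466 (edgeR adjusted p = 0.0113), lost without any one green library (adjusted p = 0.0539, 0.0524 and 0.0594).

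The 2 members that fell there were LINC.XLOC_032869 and LINC.XLOC_012144. LINC.XLOC_032869 went from 89.4, 109 and 140 CPM at green through 28.6, 8.16 and 10.6 at yellow to 19.1, 10.2 and 6.33 at brown. No brown library came near a green one, at a log2 difference of -3.25 ± 0.589 (edgeR adjusted p = 0.0125), which missed the threshold without green library 3 or brown library 2 (adjusted p = 0.0505 and 0.0732). LINC.XLOC_012144 (chromosome 3, 20449118 to 20450947, minus strand, 3 blocks) had 27, 34 and 17 counts at green and 3, 5 and 4 at brown, a difference of -2.64 ± 0.636 (edgeR adjusted p = 0.0421). It held in 6 of 17 settings, and was lost without any one green library (adjusted p = 0.114, 0.142 and 0.0939), any one yellow library (0.0766, 0.0697 and 0.102) or brown library 2 (0.0829), and with a replicate block (0.0671).

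Between brown and yellow no member was called in poly(A)-depleted libraries with edgeR, with 0% of all rows called. There were 9 of 393 members at an unadjusted p under 0.05, and DESeq2 called 0. Without brown library 3, edgeR called 17 members higher and 45 lower. Here too the counts over all rows under these alternatives are not given.

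Whether the stages differed in another way in each kind of library was asked with an interaction term. None of the 504 members was called with edgeR, and 0.0845% of all rows were. At an unadjusted p under 0.05 there were 41 members, and DESeq2 called 5. Without poly(A)-depleted brown library 1, brown library 3 or rRNA-depleted yellow library 1, edgeR called 2, 12 and 3. With same-numbered libraries of the kinds as a replicate block, edgeR called 18 members. None of these alternative counts is set against its count over all rows, which is not given. The smallest adjusted p was that of LINC.XLOC_013846 (0.124), whose rise from green to brown was 6.30 ± 1.09 in rRNA-depleted and 1.95 ± 0.481 in poly(A)-depleted libraries (edgeR adjusted p = 0.00132 and 0.0454). Its interaction passed without poly(A)-depleted brown library 1 (adjusted p = 0.0381), brown library 3 (0.0162) or rRNA-depleted yellow library 1 (0.028), and with the block (0.00813). It also passed with DESeq2 (DESeq2 adjusted p = 0.00268), and so in 5 of 26 settings. LINC.XLOC_025194 (chromosome 6, 25869930 to 25872164, plus strand, 2 blocks 139 bases apart) came next, at 0.131, or 0.0385 without brown library 3 and 0.0205 without yellow library 1, and 0.0262 with the block. It went from 0.631, 0.886 and 0.567 CPM at green to 1.23, 7.20 and 5.08 at yellow and 8.22, 5.37 and 5.08 at brown in rRNA-depleted libraries. In poly(A)-depleted libraries it went from 7.25, 4.88 and 4.44 to 9.55, 8.79 and 8.07 and then 14.1, 9.29 and 10.4 CPM.

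A few members carried much of the signal. Per kb of merged exon, averaged over the 18 libraries, LINC.XLOC_023354 was highest at 62.9 CPM per kb, followed by LINC.XLOC_032869 (28.2), LINC.XLOC_030412 (27.3), LINC.XLOC_013846 (27.0) and LINC.XLOC_019557 (15.1). The 3 members with the most counts in all held a mean of 10.3, 29.5 and 29.4% of member counts in green, yellow and brown rRNA-depleted libraries, and 48.9% in yellow library 2. The same 3 held 3.64, 1.75 and 5.36% in poly(A)-depleted libraries. They were picked by raw counts summed over the 18 libraries, and rRNA-depleted libraries hold more counts. The choice thus leaned on that kind, and a larger share there is partly built in. LINC.XLOC_030412 (chromosome 7, 14031546 to 14037497, plus strand, 2 blocks 109 bases apart) was abundant at every stage. It had 112, 104 and 94.3 CPM at green, 145, 279 and 186 at yellow and 196, 171 and 53.8 at brown in rRNA-depleted libraries. No stage contrast of it passed, but it was lower in poly(A)-depleted libraries by a log2 difference of -2.26 ± 0.419 (edgeR adjusted p = 9.13e-05). LINC.XLOC_019557 (chromosome 5, 12248443 to 12249721, plus strand, 3 blocks) had 8.16, 6.54 and 7.08 CPM at green and 21.8, 19.1 and 13.3 at yellow in rRNA-depleted libraries, a rise of 1.32 ± 0.373 (edgeR adjusted p = 0.0459). Brown against green did not pass there (log2 difference 0.51, edgeR adjusted p = 0.373). Nor did yellow against green in poly(A)-depleted libraries (-1.04, edgeR adjusted p = 0.342). How this call held under the alternatives is not given. Averaged over the stages, all 5 were called lower in poly(A)-depleted libraries in the main scaling, with log2 differences of -1.21 to -2.26. At green, with factors from the 18 libraries, LINC.XLOC_013846 and LINC.XLOC_023354 were instead higher there (means of 13.1 against 4.95 and 3.42 against 1.86 CPM). The others were lower at green, LINC.XLOC_019557 only slightly (10.2 against 10.7 CPM). With library size only, LINC.XLOC_019557 and LINC.XLOC_032869 turned to 0.16 and 0.05. Of the 5 only LINC.XLOC_030412 then passed (-0.83, edgeR adjusted p = 0.00975).

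**Figure D5:**
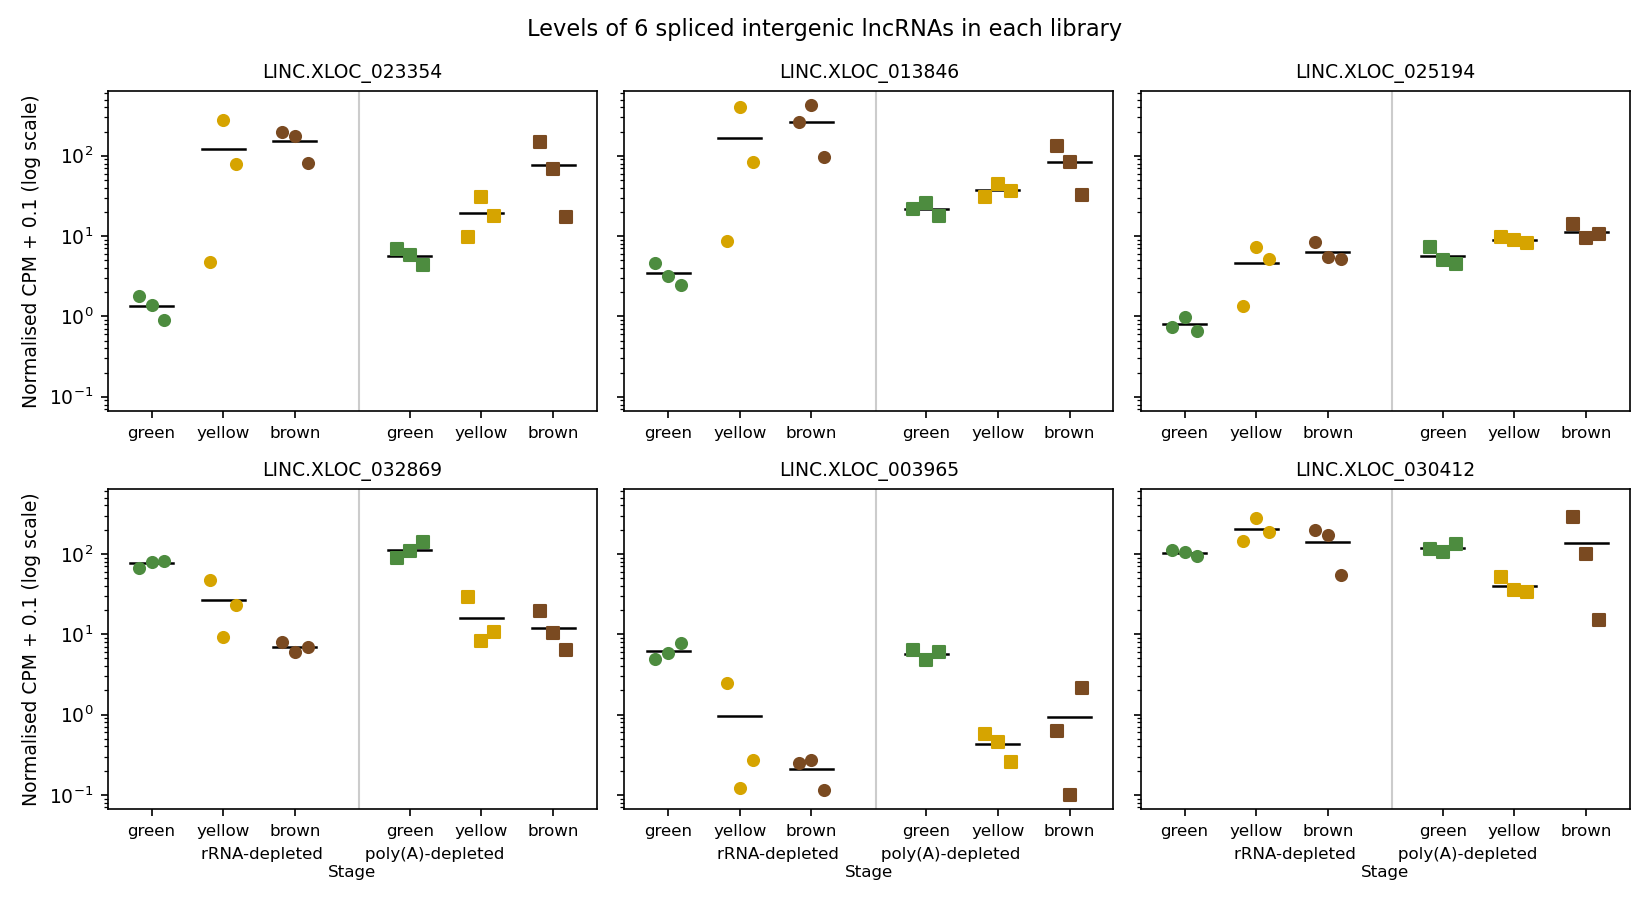
Normalised CPM plus 0.1 (log scale) of 6 spliced intergenic lncRNAs in each of the 18 libraries, by stage and library kind, with factors from each kind's own fit. Points are libraries and lines are group means. Because the factors differ by kind, heights are not comparable between the kinds. LINC.XLOC_023354 and LINC.XLOC_013846 rise from green to brown in rRNA-depleted libraries, with yellow library 1 far below the others, and LINC.XLOC_032869 falls.

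The members with the most blocks or the longest exons ranged from silent to abundant. LINC.XLOC_003564 (chromosome 1, 23904350 to 23924432, minus strand), with 9 blocks and 7 transcripts, had stage means of 1.89, 1.76 and 1.80 CPM in rRNA-depleted libraries, and its poly(A)-depleted level was higher by 1.21 ± 0.208 on the log2 scale (edgeR adjusted p = 4.44e-05). LINC.XLOC_021004, with 7 blocks, had 8 counts in all libraries together, and LINC.XLOC_007526, with 6, had 103. Both of these loci are also listed under a second class. The longest merged exons, 21199 bases in LINC.XLOC_005567, had no count, again at a locus of 2 classes. Its 2 blocks lay 32 bases apart, so it would not be a member with blocks joined across gaps under 50 bases. LINC.XLOC_032919 (16728 bases of exon, chromosome 7, also of 2 classes) rose from 10.5, 10.1 and 8.48 CPM at green to 29.1, 16.8 and 39.2 at brown in rRNA-depleted libraries, a log2 difference of 1.55 ± 0.393 (edgeR adjusted p = 0.0157). LINC.XLOC_014353 (16167 bases of exon in 3 blocks, chromosome 4, 12795029 to 12994346, plus strand) spans gaps of 85963 and 97188 bases, and was higher in poly(A)-depleted libraries by 1.62 ± 0.223 (edgeR adjusted p = 4.64e-06), with 58.0, 60.2 and 49.5 CPM at green, 90.0, 99.3 and 93.8 at yellow and 60.4, 76.0 and 93.9 at brown.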

How the data were processed

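The authors deposited a table of raw counts, whole numbers per row and library without normalization, and the exon positions of assembled transcripts (Cufflinks, per the file's source column). Tools listed, without roles, in the submitters' processing notes are TopHat2 2.1.2, Trim Galore 0.4.2 and STAR 2.5.4b. How reads were counted, with which strand setting and on which genome build, is not given in the sources used here. Reads of overlapping loci on opposite strands may therefore be shared or split between rows. Positions are printed as deposited, counted from 1. Rows were grouped by the labels. The members, lists and comparisons were chosen with earlier results of these data known. 

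Overlapping exons of a locus were merged into blocks in Python 3.11.15. Counts were fitted with edgeR 4.0.16 (R 4.3.3): TMM scaling over all rows, filterByExpr, quasi-likelihood F tests and Benjamini-Hochberg adjustment over all rows tested. Each library kind had its own fit of 9 libraries, and a fit of all 18 gave the difference between kinds and its interaction with stage (2 degrees of freedom). TMM factors of the 18 libraries ran from 0.320 to 2.66. Standard errors come from the F statistic. The fits were tested on simulated data. P-values measure the spread between these replicate libraries. Of 382 members with at least 200 counts, none had another row with nearly equal counts in every library (within 5% or 2 counts). Same-numbered poly(A)-depleted yellow and brown libraries deviated together (r over 15408 genes of 0.286 to 0.579), and the block changed no call between them.

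Named were, per comparison, the 2 largest rises and falls among members called, not overlapping between groups and at 1 CPM or more in the higher group, then for the interaction the 2 smallest adjusted p, and the 5 highest per kb, 3 with most blocks and 3 longest. LINC.XLOC_011231, and a few other values of these members, were added after their values were seen. Alternatives were other scalings, filters, DESeq2 1.42.0, blocks joined across gaps under 50 bases, a replicate block and leaving out each library.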

Additional observations from a re-analysis of the deposited data

How the results depend on the processing

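In the comparison that named them, named members kept their direction in every alternative run. Between the library kinds, LINC.XLOC_019557 and LINC.XLOC_032869, named for their level, turned from -1.21 and -1.30 to 0.16 and 0.05 with library size only. In the naming comparisons, members stayed on their side of the threshold in 326 repeats, lost it in 70 and gained it in 8. Counts of called members moved as follows, and the cause was not tested. They describe the members alone, as the matching counts over all rows are not given. Yellow against green, rRNA-depleted (18), gave 8 with library size only, 10 with at least 1 CPM in 3 libraries and 31 with DESeq2. Brown against yellow, rRNA-depleted (0), gave 1 with DESeq2, and brown against green (54) gave 26 with library size only. In poly(A)-depleted libraries, yellow against green (31) gave 156 with TMM from genes, 14 with library size only and 115 with DESeq2. Brown against green (12) gave 38, 4 and 90 in the same order, 6 without a filter and 7 with the replicate block. The interaction (0) gave 5 with DESeq2 and 18 with the block. Leaving out 1 library gave 6 to 25, 0 to 2 and 17 to 81 for these 3 contrasts in rRNA-depleted libraries. In poly(A)-depleted libraries it gave 0 to 179 for yellow against green, 0 to 62 for brown against yellow and 0 to 132 for brown against green. It gave 328 to 353 for the library kinds and 0 to 12 for the interaction. The median difference between kinds was 1.46 with TMM from genes, 2.47 with library size only, and 0.99 to 1.15 without 1 library.

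Shares of counts were 0.292% (poly(A)-depleted green), 0.586% (poly(A)-depleted yellow) and 0.104% (rRNA-depleted green) with blocks joined across short gaps, and 0.103% in rRNA-depleted green without the top member. Without 1 library the shares were 0.111 to 0.117, 0.110 to 0.144 and 0.162 to 0.231% in green, yellow and brown rRNA-depleted libraries, and 0.319 to 0.360, 0.653 to 0.742 and 0.452 to 0.701% in poly(A)-depleted ones. The labels do not say that equal replicate numbers share fruit. Between kinds, 8 of 9 same-numbered pairs had r over 0.1, up to 0.691, and all 3 did at green and at yellow. The pair of brown libraries 2 had 0.0110, so the block was kept as an alternative, and whether these pairs share material is not known from the labels. Poly(A)-depleted libraries hold fewer counts, which limits what could be called for the low members there.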
